A study of Mus musculus with 3 samples.

Results

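The Rassf family and Dapk1 were followed across 3 methylation libraries of mouse proximal colon organoids. The 9 genes are Rassf1, Rassf2, Rassf3, Rassf4, Rassf5, Rassf6, Rassf8, Rassf10 and Dapk1. Their members in the data are the 200-bp bins that overlap each gene's span or the 5 kb on either side, 2964 of the 12313737 bins in the deposited table. The rule names the genes and uses no measured value, but the genes were chosen with earlier results of these data known. Methylated DNA was captured by MBD-seq, in which methyl-CpG-binding protein on beads pulls down methylated fragments before sequencing.

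All organoids came from male mice about 40 days old that were heterozygous for a Braf V600E allele that Cre switches on (Braf+/LSL). The EV library is the control: its organoids received the lentiviral backbone without Cre, which leaves the allele off, and they grew in full medium with Wnt3a, R-Spondin, Noggin and EGF. The Braf full medium library came from Cre-treated organoids in the same medium. The Braf Base medium library came from Cre-treated organoids selected to grow without the stem-cell niche factors. Cultures were 5 months old before a last growth of 3 weeks in the named medium. There was 1 library in each group, and the labels do not tie the libraries to animals or clones. No difference below therefore has a replicate check, and none has a p-value. The libraries measure DNA methylation and no expression, so the labelled colon crypt origin was not checked against marker levels. At the ends of 18 genes that mark epithelium, fibroblasts, smooth muscle or immune cells, 2 gained and 1 was lost in Braf full medium against EV by the rule given with the values below, 0 and 1 in Base against Braf full medium, and 1 and 1 in Base against EV. Of all protein-coding genes, 8.55% gained and 1.13% lost at an end in the first of these comparisons, 2.02% and 5.4% in the next, and 6.19% and 2.61% in the last.

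Rassf proteins carry a Ras-association domain and act downstream of Ras-type GTPases without kinase activity of their own. Rassf1 to Rassf6 also carry a SARAH domain, through which they bind the Hippo kinases, and several of them restrain growth or promote cell death. Rassf8 and Rassf10 belong to another class whose Ras-association domain sits at the amino end. Dapk1 is a calmodulin-regulated kinase that promotes death and autophagy. In human colorectal and other cancers, promoter CpG islands of RASSF1, RASSF2, RASSF5 and DAPK1 are known sites of methylation.

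MBD capture reads CpG sites, so the CG content of a start region bears on what can be seen there. The promoter table from RefSeq (GRCm38.p6, the assembly of mm10) held 7 start regions for 6 of the 9 genes, each reaching from 250 bases before the start to 50 bases after it. They are shown for 4 starts with different courses: Dapk1, with rising coverage, Rassf4, covered with Braf, the internal start of Rassf5, covered least in Base medium, and the first start of Rassf1, without coverage. Every CG is in capitals, and sequences run 5′ to 3′ on the gene's own strand.
Dapk1 (plus strand, chr13:60601961-60602260): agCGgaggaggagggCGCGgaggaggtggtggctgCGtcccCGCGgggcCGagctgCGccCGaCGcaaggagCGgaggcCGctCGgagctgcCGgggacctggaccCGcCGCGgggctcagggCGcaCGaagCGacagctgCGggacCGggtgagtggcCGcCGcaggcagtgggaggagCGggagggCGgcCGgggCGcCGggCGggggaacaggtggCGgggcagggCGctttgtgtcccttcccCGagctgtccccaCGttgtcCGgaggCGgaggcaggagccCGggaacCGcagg
Rassf4 (minus strand, chr6:116673787-116674086): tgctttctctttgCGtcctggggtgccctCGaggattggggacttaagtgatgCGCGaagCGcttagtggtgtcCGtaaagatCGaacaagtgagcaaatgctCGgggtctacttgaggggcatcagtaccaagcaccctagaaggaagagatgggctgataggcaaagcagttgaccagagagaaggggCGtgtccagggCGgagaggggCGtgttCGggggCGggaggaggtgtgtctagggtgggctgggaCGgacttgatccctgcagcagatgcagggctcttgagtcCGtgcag
Rassf5 internal start (minus strand, chr1:131200136-131200435): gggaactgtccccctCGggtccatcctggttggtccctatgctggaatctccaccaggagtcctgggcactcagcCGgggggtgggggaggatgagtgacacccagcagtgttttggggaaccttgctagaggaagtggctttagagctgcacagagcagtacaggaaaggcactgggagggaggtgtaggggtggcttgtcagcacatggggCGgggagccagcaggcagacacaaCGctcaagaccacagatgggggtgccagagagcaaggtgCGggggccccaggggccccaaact
Rassf1 first start (plus strand, chr9:107551305-107551604): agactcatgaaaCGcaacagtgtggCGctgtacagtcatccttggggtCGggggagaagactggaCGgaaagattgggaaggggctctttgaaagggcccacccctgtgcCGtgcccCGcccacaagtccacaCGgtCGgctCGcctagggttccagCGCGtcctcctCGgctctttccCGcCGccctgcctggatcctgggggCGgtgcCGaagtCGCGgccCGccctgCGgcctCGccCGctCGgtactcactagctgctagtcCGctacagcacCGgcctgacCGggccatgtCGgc
The Dapk1 region held 38 CG, more than 93.3% of the 20085 promoters of protein-coding genes held, with a ratio of observed to expected CG of 0.893. Rassf1 held 27 at each of its starts, Rassf4 held 15, Rassf6 held 13 and Rassf2 held 11. The internal start of Rassf5 held 5, with a ratio of 0.179. The median over all those promoters was 14, and 95.6% held at least 1 CG. CG is its own reverse complement, so both strands hold the same count.

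Values below are normalised coverage: the authors' log2 values were raised from the log scale, a floor shared by all bins was removed, and the remainder was a whole number of read overlaps times a step set for each library. Total overlaps ranged from 12530155 in EV to 20914446 in Braf full medium. Braf full medium had reads spread over most of the genome, and only 43.3% of its bins held none, against 83.0% and 87.2% in the other libraries. Local background, the mean of weakly covered 1-kb tiles within 50 kb, ranged at the ends of the 9 genes from 0.0417 to 0.0579 in Braf full medium, from 0.00452 to 0.0138 in EV and from 0.00617 to 0.0222 in Base medium. If each library were scaled to the same total, log2 ratios would shift by -0.70 for Braf full medium over EV, by 0.90 for Base over Braf full medium, and by 0.19 for Base over EV. A difference is called gained or lost where the log2 ratio, with a pseudocount of 0.0597 added to both libraries, reaches 1 in size and the higher library reaches 0.119. Folds are plain ratios of coverage, and their 95% intervals, exact binomial by Clopper-Pearson from the estimated number of reads, cover counting error only. A window without overlaps still allows 3 reads, a coverage of 0.0340 in EV against 0.0323 in Braf full medium and 0.0251 in Base medium for a window of 1 kb to each side.

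Dapk1 rose at its start from library to library, and in Base medium it had the highest coverage of any end of the 9 genes. At its start-side end (chromosome 13, position 60601723), coverage was 0.648 in EV, then 1.87 in Braf full medium and 3.50 in Base medium. The order was EV, then Braf full medium, then Base medium, and no 2 of the 3 values lay within counting error of each other. Base medium stood 5.41-fold above EV (interval 4.10 to 7.27), Braf full medium 2.89-fold above EV (2.14 to 3.98), and Base 1.87-fold above Braf full medium (1.56 to 2.24). The log2 ratios were 2.33, 1.45 and 0.88, so the comparisons with EV were called and the step between the Braf libraries was not. More methylated copies in the culture and more methylated sites per copy give the same rise and cannot be told apart.

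The scaling mattered to the step at which Dapk1 rose. With equal totals, the log2 ratio of Braf full medium over EV was 0.78, no longer a call, and that of Base over Braf full medium was 1.76, a call. Base over EV stayed called under every alternative tried, from 2.08 to 2.54. Local background at this end was 0.00797 in EV against 0.0455 in Braf full medium and 0.00726 in Base medium, so coverage was higher in Base medium than in EV over a local background that was not.

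Bin by bin, the signal at the Dapk1 start was a single peak about 1 kb wide. Coverage in the highest 200-bp bin was 2.06 in EV, then 4.85 in Braf full medium and 9.41 in Base medium. In EV the peak lay mostly upstream of the annotated start at position 60602211, and 26.7% of the overlaps within 1 kb of it were downstream (interval 16.4% to 40.3%). That start lies inside the gene span, which begins at position 60601723, so part of its upstream side is within the gene. Downstream shares were 55.2% in Braf full medium (47.5% to 62.7%) and 40.8% in Base medium (36.1% to 45.6%). The share past position 60602211 was thus larger in Braf full medium than in EV, with intervals that do not overlap. By tile, chr13:60601001-60602000, which holds the start-side end of the gene, read 0.683, 1.02 and 2.73 in EV, Braf full medium, Base medium. That tile was called gained in Base against Braf full medium (2.68-fold, interval 1.89 to 3.84). The next tile, which holds the annotated start, read 0.763, 3.10 and 5.03, and was called gained in Braf full medium against EV (4.06-fold, 2.70 to 6.14). The bins over the printed promoter region, with its 38 CG, averaged 1.66, 4.13 and 8.55 in the order EV, Braf full medium, Base medium. Among the annotated starts of all protein-coding genes in the table, the Dapk1 window ranked above 96.8% in EV against 98.9% in Braf full medium and 99.6% in Base medium.

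**Figure D1:**
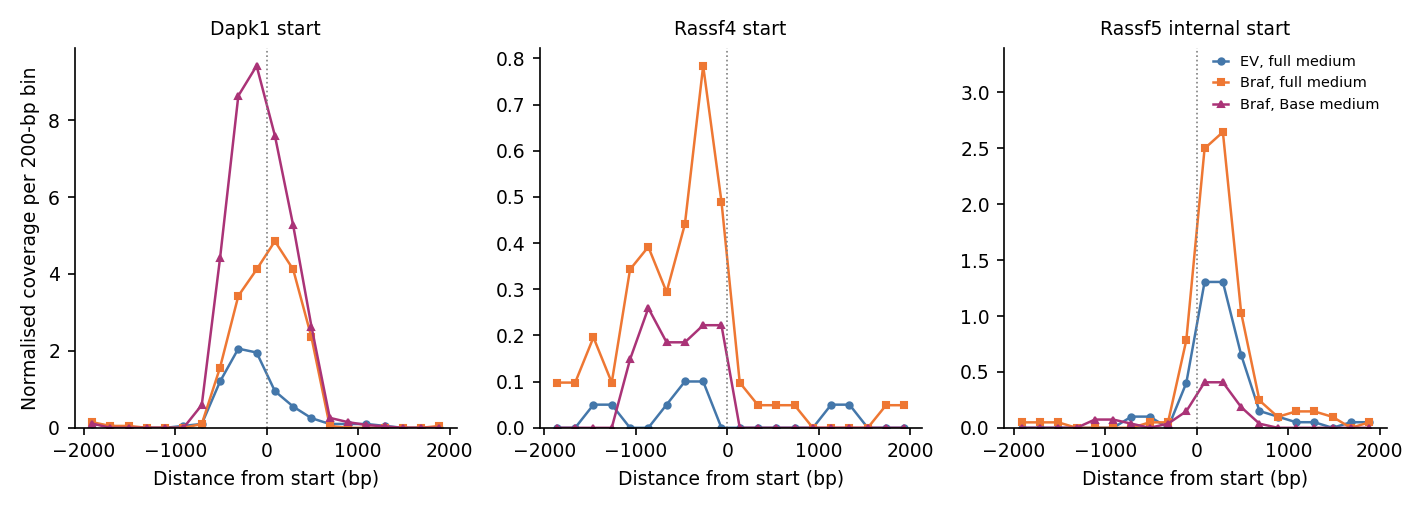
Normalised coverage per 200-bp bin against the distance from the annotated start in bp, in the direction of transcription, for 3 starts; each line is 1 library, and the vertical scales differ. At Dapk1 the Base medium line peaks at 9.41 and the EV line at 2.06, while at the internal start of Rassf5 the Base medium line is the lowest.

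The body of Dapk1 was lower in Base medium than in EV. Over its other 171 tiles of 1 kb, mean coverage was 0.0523 in EV, then 0.0779 in Braf full medium and 0.0322 in Base medium, so Base medium stood 1.62-fold below EV (interval 1.39 to 1.91). With local background taken off, the means were 0.0432, 0.0317 and 0.0253. The 2 tiles at the start held 13.9% of the gene's overlaps in EV, which became 23.6% in Braf full medium and 58.5% in Base medium.

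In Base medium against EV, 6 body tiles of Dapk1 were called lost and 1 gained, and with the start tiles 12 tiles of the gene were tested. Loss was common in this comparison: 17.3% of all tested 1-kb tiles in protein-coding genes were lost and 7.6% gained, with a median log2 ratio of -0.22. The deepest loss lay 155.8 kb into the gene (chr13:60757001-60758000), with coverage of 0.622 in EV against 0.137 in Braf full medium and 0.0371 in Base medium. That tile was 16.8-fold lower in Base medium than in EV (interval 4.23 to 148), and it was also called lost in Braf full medium against EV. The tile at 147.8 kb read 0.773, 0.490 and 0.133 in the same order of libraries, the tile at 97.8 kb 1.08, 0.902 and 0.400, and the tile at 86.8 kb 0.642, 0.363 and 0.215. The tile at 86.8 kb includes the end of the long non-coding RNA Gm35540. All 4 of these tiles fell in the order EV, Braf full medium, Base medium, the reverse of the start. They were listed for their loss in Base medium against EV, so only the place of Braf full medium was free. The other losses, at 27.8 and 152.8 kb, started from 0.241 and 0.281 in EV. A further tile, at 74.8 kb, was covered in Braf full medium alone, with 0, 0.245 and 0.00741. The tile gained in Base medium, at 123.8 kb, had no overlap in EV and 0.185 in Base medium, at least 2.47-fold higher.

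The last covered tiles before the far end of Dapk1 did not share this loss. At 158.8 kb coverage was 1.96 in EV, then 1.24 in Braf full medium and 1.45 in Base medium, and at 159.8 kb it was 1.66, 1.30 and 1.64. For Base medium over EV, both intervals included equal coverage, while Braf full medium lay 1.57-fold below EV at the former tile (interval 1.08 to 2.24), short of a call. The window at the far end itself was nearly empty, with 0 to 2 overlaps in each library.

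**Figure D2:**
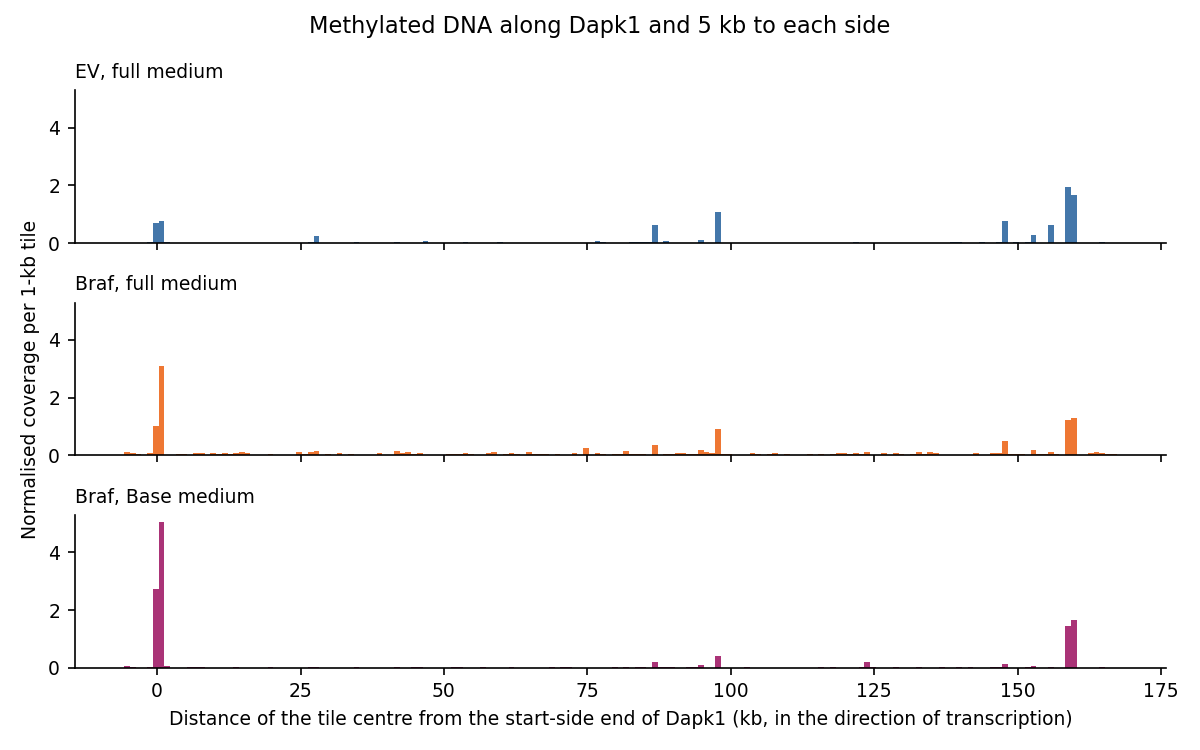
Normalised coverage of 1-kb tiles along Dapk1 and 5 kb to each side, against the distance of the tile centre from the start-side end in kb; each panel is 1 library on the same vertical scale. The start tiles grow from the EV panel to the Base medium panel, while the tiles at 86.8, 97.8, 147.8 and 155.8 kb shrink and those at 158.8 and 159.8 kb remain.

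Rassf1, whose RASSF1A form binds the Hippo kinases and microtubules, had no read over its first promoter region in any library. The region printed above held 0 overlaps in EV, Braf full medium and Base medium, which allows a coverage of up to 0.125 in EV. Its wider window, 1 kb to each side, averaged 0.278 in EV against 0.0935 in Braf full medium and 0.158 in Base medium. That was called a loss in Braf full medium against EV (log2 ratio -1.14, 2.98-fold lower, interval 1.32 to 7.12). None of the overlaps lay downstream of the start: they came from the upstream side, where the gene Zmynd10 and the long non-coding RNA Gm34106 lie. The call did not hold with a pseudocount 4 times as large (log2 ratio -0.64) or with 500 bp to each side of the end (-0.68). With 500 bp to each side of the annotated start the log2 ratio was 0.19, on 1 overlap in Braf full medium and 0 in EV. At its second start, 27 CG and 3 kb further in, the window averaged 0.00913, 0.0713 and 0 in the order EV, Braf full medium, Base medium, where local background in Braf full medium was 0.0553.

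Coverage inside Rassf1 was high and alike in the 3 libraries. The tile 6.1 kb into the gene (chr9:107557001-107558000) read 1.31 in EV, then 1.04 in Braf full medium and 1.29 in Base medium, and the next tile 1.08, 1.07 and 1.35. For each pair of libraries the intervals of these tiles included equal coverage. The called tiles of Rassf1 lay in its flanks, which belong to neighbouring genes. The tile just upstream (chr9:107550001-107551000), within Zmynd10, fell from 0.642 in EV to 0.196 in Braf full medium and read 0.378 in Base medium. The tile beyond the far end, within Tusc2, read 0.402, 0.108 and 0.193, and was lost in Braf full medium too. A tile further into Zmynd10 (chr9:107549001-107550000) read 0.120, 0.284 and 0, a loss in Base medium against both other libraries.

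Rassf5, a partner of Ras and Rap1, makes a long protein from its upstream end and a shorter one, known as RAPL in lymphocytes, from an internal start, and these places had different courses. At the upstream end (chromosome 1, position 131245178), which the long non-coding RNA Gm28913 overlaps, coverage was 1.41 in EV against 1.94 in Braf full medium and 1.93 in Base medium. Both Braf libraries lay above EV, by 1.38-fold (interval 1.09 to 1.75) and 1.37-fold (1.10 to 1.72), and neither passed the call. Between the Braf libraries the ratio was 0.994 (0.816 to 1.22). With equal totals, the log2 ratio of Braf full medium over EV turned from 0.45 to -0.23. Nearly all overlaps there, 97.7% to 99.3% by library, lay on the transcribed side, and most of these were in the tile chr1:131244001-131245000.

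At the internal start of Rassf5 (position 131200185), coverage was 0.379 in EV, then 0.686 in Braf full medium and 0.121 in Base medium. Base medium was lowest, and Braf full medium highest. The window was lost in Base medium against Braf full medium (log2 ratio -2.04, 5.66-fold lower, interval 3.10 to 10.4) and against EV (log2 ratio -1.28, 3.12-fold lower, 1.58 to 5.92). Of all annotated starts, 3.58% were lost in the former comparison and 1.42% in the latter. In Braf full medium the window was 1.81-fold above EV (1.19 to 2.89), short of a call. With equal totals, the log2 ratio of Braf full medium over EV there fell from 0.77 to 0.14. Both 1-kb tiles at this start showed the losses, with 0.452, 0.833 and 0.126 in the one and 0.381, 0.676 and 0.126 in the other. The peak lay on the transcribed side, which held 85.4%, 88.1% and 77.8% of the overlaps within 1 kb, and so mostly past the CG-poor bases printed above. The 3 bins that overlap those bases averaged 0.569, 1.11 and 0.198, in the same order of libraries. Most of that came from the bin chr1:131200001-131200200, which lies mainly outside the printed bases. It held 26 of the 34 overlaps in EV, 51 of 68 in Braf full medium and 11 of 16 in Base medium. Local background there was 0.0113 in EV against 0.0553 in Braf full medium and 0.00969 in Base medium. The loss against EV had a log2 ratio of -0.78 with a pseudocount 4 times as large, no longer a call.

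**Figure D3:**
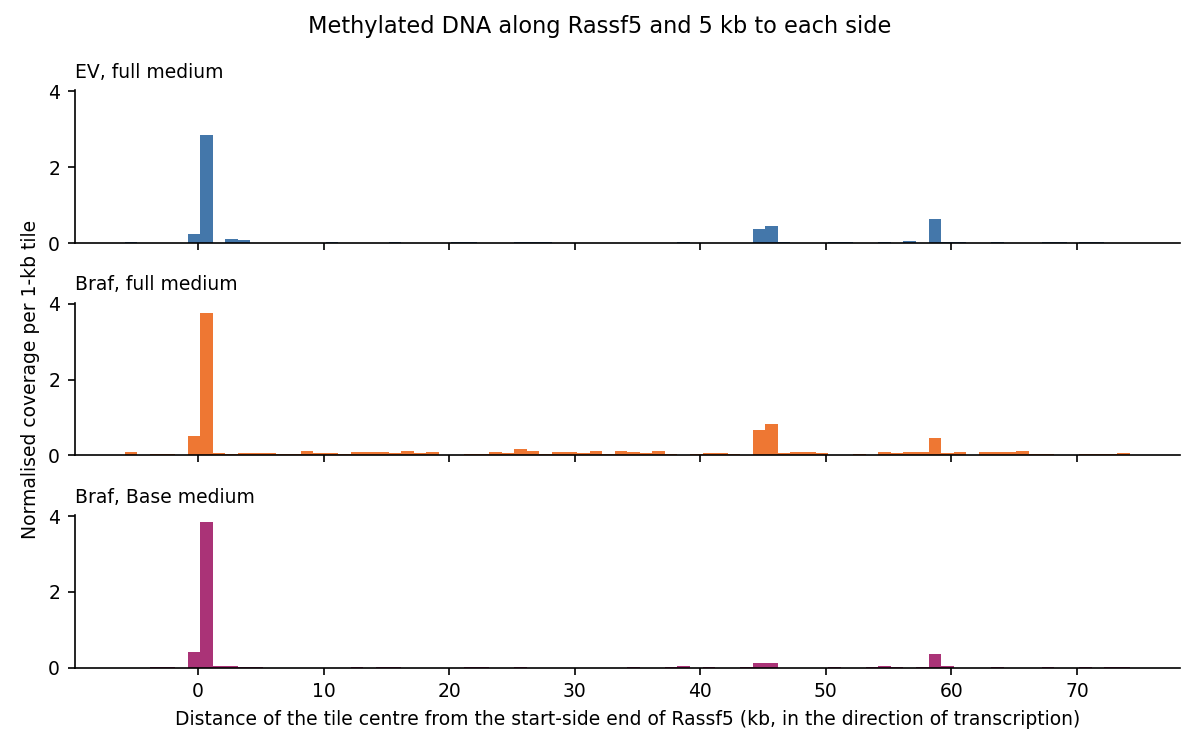
Normalised coverage of 1-kb tiles along Rassf5 and 5 kb to each side, against the distance of the tile centre from the start-side end in kb; each panel is 1 library on the same vertical scale. The tile at 0.7 kb reads 2.84, 3.75 and 3.83 from the top panel down, and the tiles at 44.7 and 45.7 kb, at the internal start, are lowest in Base medium.

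Rassf4, a SARAH-domain member, gained coverage just upstream of its start with Braf. At the start (chromosome 6, position 116673836), coverage was 0.0228 in EV, then 0.272 in Braf full medium and 0.111 in Base medium. Braf full medium was 11.9-fold above EV on 5 overlaps in EV and 61 in Braf full medium (interval 2.96 to 103), a gain with a log2 ratio of 2.01. Base medium was 4.87-fold above EV (1.08 to 43.7), with a log2 ratio of 1.05, but its coverage of 0.111 lay below the minimum for a call. Local background was 0.00756, 0.0518 and 0.00832 in the order EV, Braf full medium, Base medium. With it taken off, the log2 ratio of Braf full medium over EV was 1.90, and with a pseudocount 4 times as large it was 0.96, no longer a call. The tile just upstream (chr6:116674001-116675000) read 0.0502, 0.451 and 0.200. Unlike the window, this tile was called gained against EV in Base medium as well as in Braf full medium. The 3 bins that overlap the 300 bases printed above averaged 0.0335, 0.457 and 0.148. The signal stopped near the start, and only 9.26% of the overlaps of Braf full medium within 1 kb lay downstream.

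A gain at the other side of Rassf4 was seen in Base medium alone. The tile chr6:116628001-116629000, 4.5 kb below the low end of Rassf4, read 0.0201 in EV against 0.0196 in Braf full medium and 0.356 in Base medium, where it rested on 48 overlaps against 2 in each of the others. It was 17.7-fold above EV (interval 2.23 to 582). The neighbouring gene Zfp422 ends at position 116628999, inside this tile, so the gain lies at an end of Zfp422 as well. Inside Rassf4, a tile 22.3 kb from the start, where the gene Depp1 lies, read 0.271, 0.255 and 0.193 and was not called.

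Rassf2, a SARAH-domain member that restrains growth, showed little at its start. Coverage there (chromosome 2, position 132030324) was 0.0137 in EV, then 0.0935 in Braf full medium and 0.0236 in Base medium, on 3, 21 and 7 overlaps. Braf full medium was highest, over a local background of 0.0417, and below the minimum for a call. Inside the gene, 25.9 kb from the start-side end, 1 tile was covered in all libraries with 0.723, 1.08 and 0.978. No interval between libraries for that tile excluded equal coverage. The next best, at 6.9 and 1.9 kb, read 0, 0.137 and 0, and 0, 0.127 and 0.0222.

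Rassf6, a SARAH-domain member with pro-apoptotic activity, had no overlap in EV at its start on chromosome 5, against 15 overlaps in Braf full medium and 2 in Base medium. The Braf full medium value of 0.0668 compares with a local background of 0.0438. Its best covered tile, 16.2 kb inside (chr5:90624001-90625000), read 0.241 in EV against 0.343 in Braf full medium and 0.511 in Base medium. The order was the same as at Dapk1, but the ratio of Base medium to EV, 2.12-fold (interval 0.973 to 4.76), did not exclude equal coverage. A tile in the far flank, 4.6 kb below the low end and next to Albfm1, read 0.191, 0.157 and 0.0593, a loss in Base medium against EV whose interval (0.869-fold to 21.2-fold lower) included equal coverage. The tile beside it read 0.0201, 0.137 and 0.00741.

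Rassf3, a SARAH-domain member linked to p53 stability, was covered mainly in its body. Of its 77 tiles, 22 reached the minimum in at least 1 library, the most of the 9 genes. The strongest, 54.2 kb above the low end on chromosome 10, read 2.08 in EV, then 1.65 in Braf full medium and 2.26 in Base medium, while the tile at 25.2 kb read 1.61, 1.54 and 1.59 and that at 9.2 kb 1.20, 1.02 and 0.934. These levels were alike except that Base medium lay 1.37-fold above Braf full medium at the former (interval 1.02 to 1.89), short of a call. Near the low end, at 2.2 kb, coverage fell from 0.502 in EV to 0.215 in Base medium, a call (2.34-fold lower, interval 1.05 to 5.08). At 23.2 kb it rose from no overlap in EV to 0.193 in Base medium, at least 2.57-fold. At the low end itself the 3 libraries read 0.100, 0.129 and 0.104, and at the high end 0.00456, 0.102 and 0.

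Rassf8, which acts at cell junctions, and Rassf10, both of the amino-terminal class, had no call in the window of 1 kb to each side of either end. Single tiles near their high ends were called gained in Braf full medium and are listed further below. At the ends of Rassf8 on chromosome 6, coverage was 0, 0.0356 and 0.0269 (low end) and 0.110, 0.138 and 0.115 (high end) in EV, Braf full medium and Base medium. Its best covered tile, 68.9 kb above the low end, read 0.793, 0.911 and 1.19, with 1.50-fold more in Base medium than in EV (interval 0.966 to 2.36). The next best, at 67.9 and 73.9 kb, read 0.151, 0.235 and 0.178, and 0.211, 0.127 and 0.170, and neither was called. Rassf10 on chromosome 7 had the lowest mean coverage of the 9 genes in EV and in Base medium, with 6 overlaps in EV against 97 in Braf full medium and 6 in Base medium over 69 bins. Mean coverage over the gene and its flanks was thus 0.00436, 0.0689 and 0.00322. In Braf full medium 47.6% of all protein-coding genes were lower, and in Base medium 6.45% were. At the ends of Rassf10, coverage was 0.0274, 0.0624 and 0 (low end) and 0, 0.0935 and 0.00674 (high end), below the minimum for a call. Local background in Braf full medium was 0.0451 at both ends of Rassf10. Its best covered tiles were at 2.5 kb (0, 0.157 and 0.00741), at 1.5 kb (0, 0.137 and 0.0148) and in the flank (0, 0.118 and 0.00741), each highest in Braf full medium.

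**Figure D4:**
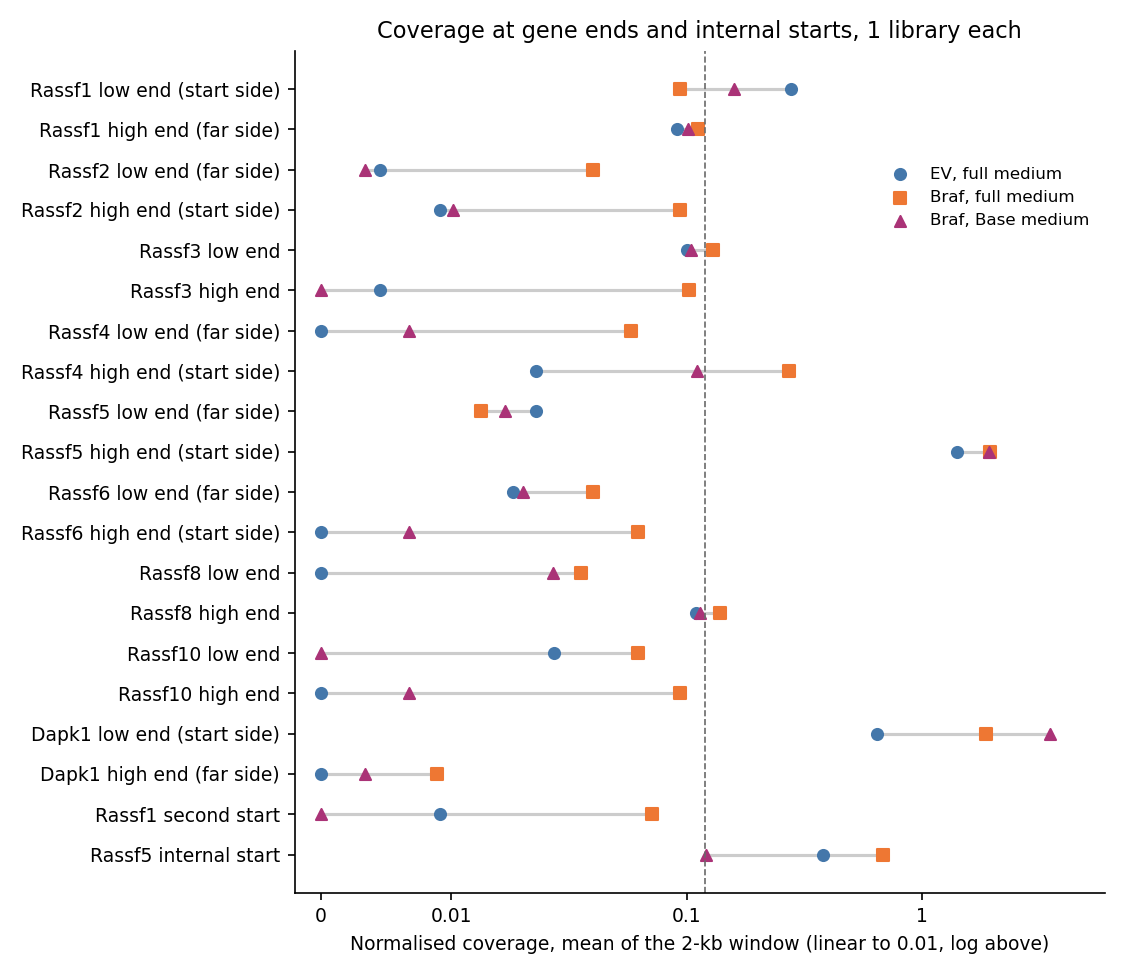
Normalised coverage averaged within 1 kb of either end of each of the 9 genes and of the internal starts of Rassf1 and Rassf5; each point is 1 library, the axis is linear to 0.01 and logarithmic above, and the dashed line marks the minimum for a call, 0.119. The start sides of Dapk1 and Rassf5 stand out in all libraries, and Braf full medium is the highest library at 15 of the 18 ends.

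Counted over gene ends, calls among the 9 genes were small counts, given here beside the shares of all genes. In Braf full medium against EV, 2 of the 9 gained (Dapk1 and Rassf4) and 1 of the 9 lost (Rassf1). Of all 20665 protein-coding genes, 8.55% gained and 1.13% lost. In Base medium against Braf full medium none was called, where 2.02% of all genes gained and 5.4% lost. In Base medium against EV, 1 gained (Dapk1) and none lost, where 6.19% gained and 2.61% lost. The median log2 ratio over the 18 ends was 0.56, -0.26 and 0.06 in these comparisons, against 0.66, -0.61 and 0.00 over all gene ends. Each pair of these comparisons shares a library. Braf full medium was the highest library at 15 of the 18 ends (83.3%), where the same held for 81.8% of all gene ends.

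Of the 7 annotated starts, 2 gained in Braf full medium against EV (Rassf4 and Dapk1) and 1 was lost (the first of Rassf1), where 6.8% and 0.782% of all annotated starts were. In Base against Braf full medium 0 gained and 1 was lost (Rassf5), against 2.1% and 3.58%. In Base against EV 1 gained (Dapk1) and 1 was lost (Rassf5), against 5.56% and 1.42%.

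Counted over 1-kb tiles, calls were most often gains in Braf full medium against EV and losses in Base against Braf full medium, for the 9 genes and for all genes. Of the member tiles that reached the minimum in Braf full medium against EV, 21 of 71 gained (29.6%) and 3 lost (4.23%), where 34.3% and 4.93% of all such tiles in protein-coding genes did. In Base medium against Braf full medium, 3 of 74 gained (4.05%) and 25 lost (33.8%), where 2.34% and 38.1% did. In Base medium against EV, 7 of 53 gained (13.2%) and 11 lost (20.8%), where 7.6% and 17.3% did. Median log2 ratios of these member tiles were 0.39, -0.33 and -0.04, against 0.25, -0.54 and -0.22 over all tested tiles. Once local background was taken off, 5 of the 21 gains and 7 of the 25 losses that involve Braf full medium kept their call, while all 7 gains and 10 of the 11 losses of Base medium against EV did. Of those 7 gains, 3 were at Dapk1, 3 at Rassf4 and its flanks and 1 at Rassf3. Of the 11 losses, 6 were at Dapk1, 2 at Rassf5, and 1 each at Rassf1, Rassf3 and Rassf6.

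Most gains in Braf full medium were weakly covered tiles seen in that library. Beside the start tiles of Dapk1 and Rassf4, 18 tiles gained there, with coverage from 0.127 to 0.245, and 0 to 0.0402 in EV. They lay in Dapk1 (58.8, 74.8, 81.8, 95.8 and 132.8 kb from the start-side end), Rassf2 (1.9 and 6.9 kb), Rassf4 (16.3 and 28.3 kb), Rassf5 (25.7 kb), Rassf6 (15.2 and 41.2 kb), and, counted from the low end, Rassf3 (64.2 kb and 1 in the flank), Rassf8 (38.9 and 74.9 kb) and Rassf10 (1.5 and 2.5 kb). Of these, the tile of Rassf5 (0.0201 in EV, 0.176 in Braf full medium), that of Rassf4 at 28.3 kb (0.0402 and 0.186) and that of Dapk1 at 74.8 kb (0 and 0.245) were also gained with local background taken off. The other 15 lost their call with that background taken off.

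**Figure D5:**
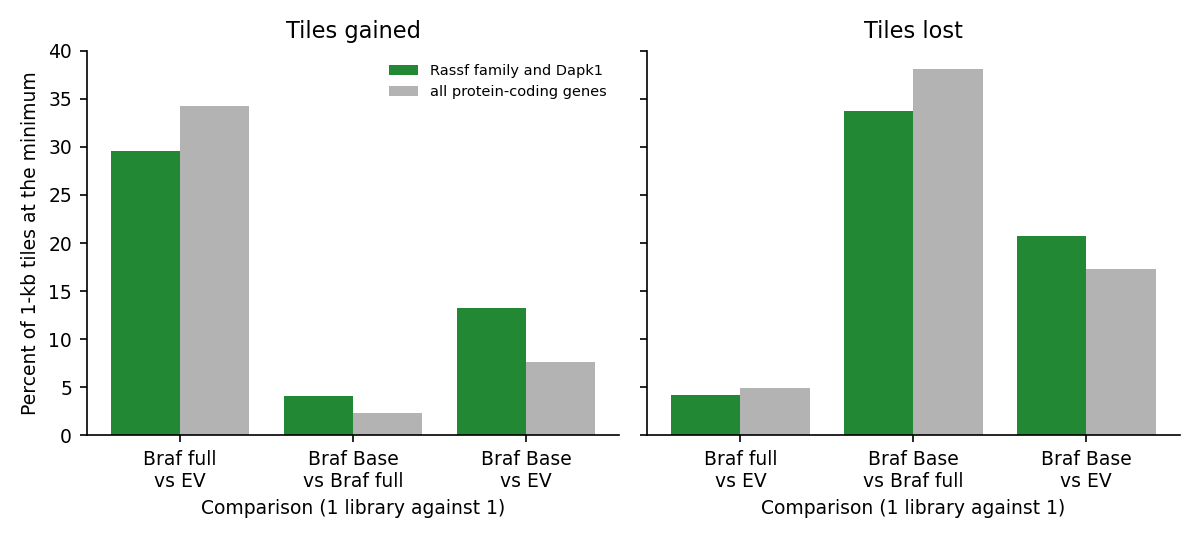
Percent of 1-kb tiles at or above the minimum coverage that gained or lost in each comparison, for the 9 genes (green) and for all protein-coding genes (grey), without background subtraction. The widest gap is at tiles gained in Base medium against EV, 13.2% (7 of 53 tiles) against 7.6%. Those 7 tiles became 3 with a larger pseudocount or a higher minimum.

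The other genes of the pathway held few calls at their ends, as did all genes. Of 28 such genes, 1 gained and 0 lost in Braf full medium against EV, 0 gained and 0 lost in Base against Braf full medium, and 1 gained and 0 lost in Base against EV. Over all protein-coding genes the shares gained and lost were 8.55% and 1.13%, 2.02% and 5.4%, and 6.19% and 2.61%. None of the 2 amino-terminal relatives Rassf7 and Rassf9, the 9 Hippo kinases and scaffolds or the 4 Dapk relatives was called. The gain was at the far end of Tead2, which encodes a DNA-binding partner of the Hippo effectors Yap1 and Wwtr1. Coverage there was 0.283 in EV against 0.886 in Braf full medium and 1.09 in Base medium, and with equal totals the value of Braf full medium against EV was no longer called. Equal totals also made 2 gains in Base against Braf full medium, at this end of Tead2 and at the low end of Rap1b, a Ras-like partner of Rassf5, which read 0.105, 0.0490 and 0.108 in EV, Braf full medium and Base medium.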

How the data were processed

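MBD-seq read 50-bp single ends from 3 libraries, 1 per group. The authors deposited log2 values for 200-bp bins of chromosomes 1 to 19 on mm10, and reads were mapped with Bowtie2, per the submitters' processing notes, which give no version. Other chromosomes were not analysed here, and the sources used here do not state the authors' scaling rule. In every bin the deposited log2 value equalled log2 of a floor plus a whole number of steps, within 0.001 of a step, so whole overlaps were recovered; 1 read overlapped about 2.4 to 2.5 bins. Coverage is overlaps times the step, without the floor.

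Bins within 1 kb of either end of 20665 protein-coding genes, windows at annotated starts and fixed 1-kb tiles were averaged with Python 3.11.15, NumPy 2.4.6, pandas 2.3.3 and SciPy 1.17.1. With 1 library a group no test was run, and calls follow the rule given with the values, checked on simulated data. The simulated ends had coverage of at least 5 times the mean and no raised background. The check therefore does not cover weakly covered windows or the background of Braf full medium. Alternatives were equal totals, local background subtracted, a pseudocount 4 times as large, a minimum 5 times the mean, and moved or narrower windows. All 9 genes are named, with their 3 best covered tiles and called tiles of the largest ratio, and pathway genes that were called. Other called tiles are given as counts. The genes and the lists of 28 pathway and 18 marker genes were chosen with earlier results of these data known. One further pathway gene is not reported here.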

Additional observations from a re-analysis of the deposited data

How the results depend on the processing

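Counts of calls that involve Braf full medium depended on the processing, while those of Base medium against EV moved less. In Braf full medium against EV, the 21 gained tiles became 4 with equal totals, 5 with local background subtracted, 3 with a pseudocount 4 times as large and 2 with the higher minimum, and the 3 lost tiles became 15, 6 and 2 under the first 3 of these. In Base against Braf full medium, the 3 gained tiles became 22, 7, 2 and 2, and the 25 lost tiles 5, 7, 3 and 4, in that order of alternatives. In Base against EV, the 7 gained tiles became 3 and 3, and the 11 lost tiles 3 and 7, with the larger pseudocount and the higher minimum. Of the genes, the 2 that gained in Braf full medium against EV became 1 with equal totals, 1 with the larger pseudocount and 1 with the higher minimum, and the 1 lost became 0 with that pseudocount, with that minimum and with the narrower window. In Base against Braf full medium, 2 genes gained with equal totals, 1 with background subtracted and 1 with the narrower window, which also gave 1 lost. In Base against EV, 2 genes gained with equal totals. At the first annotated start of Rassf1, the log2 ratio of Braf full medium over EV changed sign from -1.14 to 0.19 in the narrower window, which holds fewer upstream bins. That window was nearly empty, with 0 overlaps in EV and 1 in Braf full medium, so the change of sign shows no rise. Among the log2 ratios of single ends and starts under the 4 alternatives run for them, 292 moved by less than their counting interval, which is wide at low counts, and 7 by more, all with equal totals. Some of the 292 lost their call, among them those at the starts of Rassf1 and Rassf4 and the internal start of Rassf5 with the larger pseudocount. Windows at annotated starts were chosen after seeing the data. Depth limits low values: an empty window in EV still allows a coverage of 0.0340. No paired analysis was possible because each group holds 1 library.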
